A study of Drosophila melanogaster with 6 samples.

Results

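The mucin genes Muc68D, Muc68E and Mur18B, the peritrophin gene Peritrophin-15a, the chitinase gene Cht4 and the numbered gene CG14125 are 6 of the 17609 Drosophila melanogaster genes with deposited values. They were chosen by name, as mucin, peritrophin, chitinase or chitin-binding type genes that differed strongly between genotypes in the thorax or carcass libraries. The thorax and carcass ratios below are therefore a description of what chose them, with no test. The gut pair did not enter the choice. The differences between tissues were not the contrast that chose the genes, but the spread they are tested against includes it.

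RNA was sequenced from 3 tissues of 2 genotypes, with 1 library for each combination. The foxo RNAi flies carried Act88FGal4, a driver active in indirect flight muscle, with a UAS hairpin against the transcription factor gene foxo (ACT88F>Foxo RNAi). The control flies carried the same driver over w1118 and no hairpin (ACT88F>W1118), so every library came from flies with the driver and none came from flies with a hairpin against another gene. Flies were labelled 10 days old and were kept for 10 days, from 2 to 3 days after eclosion, on a sugar and yeast diet. The tissues were whole thorax (labelled skeletal muscle), gut, and carcass freed of intestines and eggs (labelled fat body). The labels give neither the sex nor the number of flies in a library, and the protocol calls the thorax intact.

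The peritrophic matrix is a sheet of chitin and glycoproteins that lines the insect midgut and separates food and microbes from the epithelium. Its proteins include peritrophins, which bind chitin through cysteine-rich domains, and mucins, which carry dense O-linked sugars. Chitinases cut chitin, and chitin synthases and deacetylases make and modify it, both in this matrix and in the cuticle.

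Libraries held 13274574 to 34385727 counted reads, with the foxo RNAi thorax library the deepest. Flight muscle genes took 4.32% and 3.55% of reads in control and foxo RNAi thorax and at most 0.313% in the other libraries, and digestive enzyme genes took 15.8% and 11.0% of reads in the gut libraries and at most 0.135% elsewhere. The flight muscle troponin gene TpnC4 was listed at 0 in all 6 libraries. The targeted gene foxo had a foxo RNAi to control ratio of 0.717 (0.686 to 0.749) in thorax, 0.783 in gut and 0.764 in carcass, short of a 2-fold difference in each whole tissue. Ratios were scaled with TMM and carry exact 95% intervals for counting error only, since no genotype has a replicate in any tissue. A gene was called higher or lower when its pair of libraries held 30 reads or more, differed 2-fold or more, and kept 1.5-fold or more at the near end of the interval.

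Muc68D, Muc68E and CG14125 lie on the left arm of chromosome 3 in Release 6. Muc68D spans 3L:11767299-11772157 on the minus strand, has 2 exons and codes for 1514 residues. Muc68E spans 3L:11967343-11972979, also on the minus strand, and codes for 1799 residues. CG14125 spans 3L:11974905-11975810 on the plus strand, 1925 bases beyond Muc68E, and codes for 256 residues. Peritrophin-15a, named after a small blowfly peritrophin, spans 2L:8395665-8396096 and codes for 92 residues. Cht4 spans 2R:21065379-21067087 and codes for 462 residues, and Mur18B, a mucin-related gene, spans X:19213254-19214938 and codes for 481 residues. No other annotated gene overlaps any of the 6. How the counting treated reads with several matches is unknown here, so counts of repeat-rich mucins and of chitinases with close relatives are uncertain.

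All of the 6 genes but Mur18B had their lowest or near-lowest levels in control thorax and were higher in the foxo RNAi thorax library. Together the 6 genes took 0.00129% of reads in control thorax and 0.141% in foxo RNAi thorax. In gut they took 0.650% and 0.574%, and in carcass 0.128% and 0.0525%. The opposite pattern by tissue, higher in foxo RNAi thorax and lower in foxo RNAi carcass, held by the call rule for Muc68D, Muc68E and CG14125 and not for the other 3.

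Muc68D had 38 reads in control thorax and 38413 in foxo RNAi thorax, 55526 and 38605 in gut, and 6880 and 57 in carcass. As deposited RPKM, reads scaled by library total and by the length of the gene's span, these were 0.432 and 228 in thorax, 782 and 557 in gut, and 90.2 and 0.880 in carcass. The order of its levels ran from control gut through foxo RNAi gut, foxo RNAi thorax, control carcass and foxo RNAi carcass to control thorax, with no overlap of counting intervals between neighbours. The foxo RNAi to control ratio was 492 (363 to 704) in thorax and 0.603 (0.596 to 0.611) in gut, and the carcass library was 114-fold lower (88.7 to 152). The highest level was 1813 times the lowest.

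CG14125 followed nearly the same course, with 11 and 7058 reads in thorax, 15722 and 13040 in gut, and 1422 and 8 in carcass. Its RPKM was 0.670 and 225 in thorax, 1188 and 1009 in gut, and 100.0 and 0.663 in carcass. Its levels in control thorax and foxo RNAi carcass could not be told apart by their counting intervals. The ratio was 302 (177 to 634) in thorax and 0.720 (0.703 to 0.737) in gut, and the carcass library was 160-fold lower (85.8 to 393). Muc68D lay between 0.552 and 1.33 times the RPKM of CG14125 in all 6 libraries, although CG14125 alone ranged over 1792-fold.

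Muc68E, the longest of the mucins here, had 12 and 1078 reads in thorax, 11366 and 17267 in gut, and 98 and 13 in carcass. It peaked in foxo RNAi gut at 215 RPKM, against 138 in control gut, 5.52 in foxo RNAi thorax and 1.11 in control carcass. The lowest levels, 0.117 RPKM in control thorax and 0.173 in foxo RNAi carcass, had overlapping intervals. The ratio was 42.5 (25.2 to 85.9) in thorax and 1.32 (1.29 to 1.35) in gut, and carcass was 6.96-fold lower (4.02 to 14.0).

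Peritrophin-15a had 7 and 546 reads in thorax, 7391 and 6782 in gut, and 29 and 15 in carcass. Per base of gene span, introns included, its 1171 RPKM in control gut matched the level of CG14125 within counting error. In foxo RNAi gut Peritrophin-15a stood at 1100 RPKM and in foxo RNAi thorax at 36.5 RPKM. In control thorax it was at 0.894 RPKM, and the carcass levels of 4.28 and 2.61 had overlapping intervals. The thorax ratio was 35.9 (18.5 to 96.0), and the carcass ratio of 0.551 (0.270 to 1.05) did not meet the call rule. The gut ratio was 0.796 (0.770 to 0.823).

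Cht4 had 1 and 1336 reads in thorax, 1296 and 3315 in gut, and 124 and 78 in carcass. Its thorax ratio of 439 rests on a single control read, and its interval runs from 118 to 26019. In gut, which did not enter the choice, its ratio was 2.22 (2.08 to 2.37), with RPKM of 51.9 in control and 136 in foxo RNAi. In carcass the levels of 4.62 and 3.43 RPKM had overlapping intervals and the ratio was 0.661 (0.490 to 0.883).

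Mur18B ran the other way in thorax, with 163 reads in control and 4 in foxo RNAi, 73.7-fold lower (31.7 to 307). Unlike the other 5 it was highest in carcass, with 11438 and 6804 reads, or 432 and 303 RPKM. Gut held 3125 and 2704 reads, or 127 and 112 RPKM. The carcass ratio was 0.624 (0.605 to 0.643) and the gut ratio 0.751 (0.713 to 0.791), so Mur18B was lower in foxo RNAi in all 3 tissues, by less than 2-fold outside thorax.

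**Figure D1:**
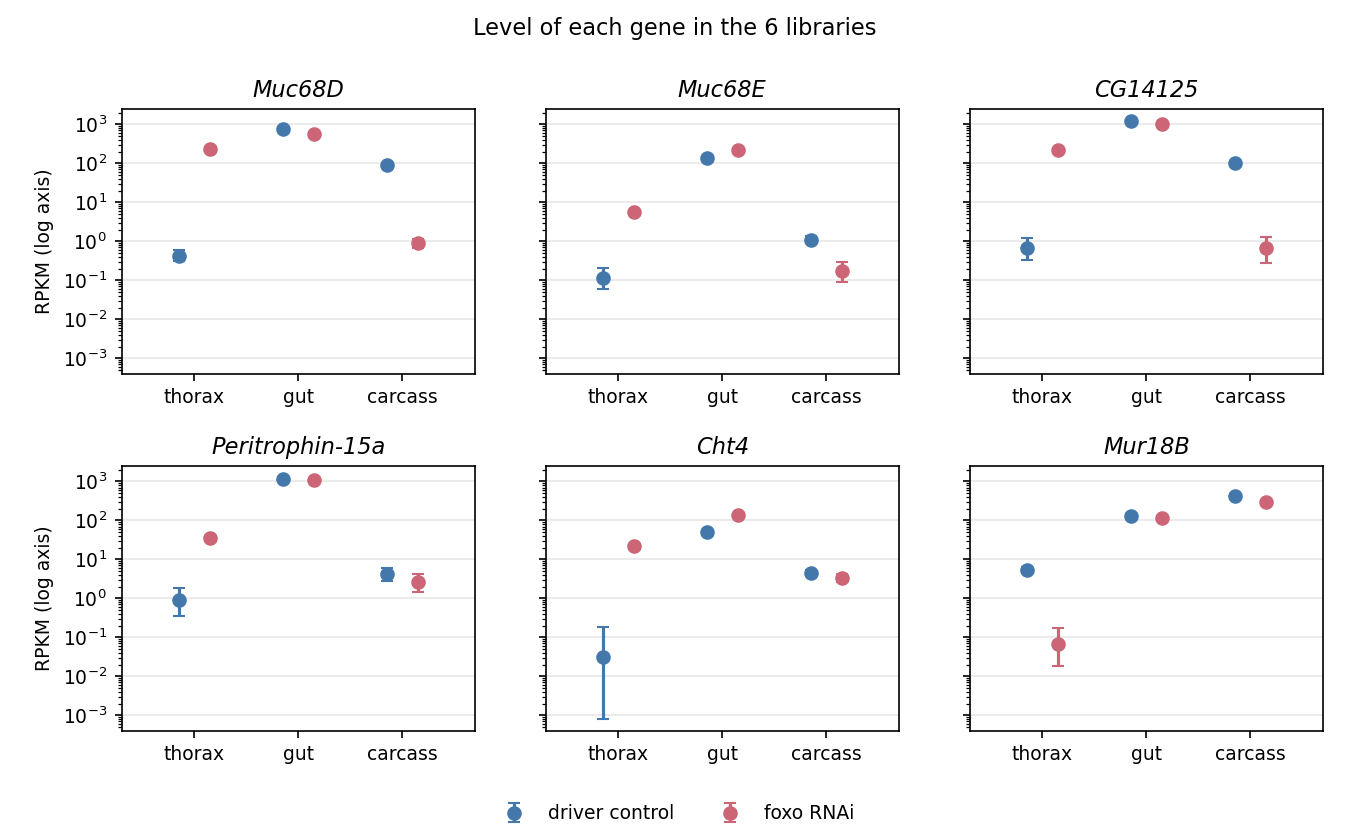
Deposited RPKM of each gene on a log axis in thorax, gut and carcass, with driver control in blue and foxo RNAi in red; bars are exact 95% Poisson intervals. Muc68D is at 0.432 in control and 228 in foxo RNAi thorax and at 90.2 and 0.880 in carcass, while Mur18B is highest in carcass.

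**Figure D2:**
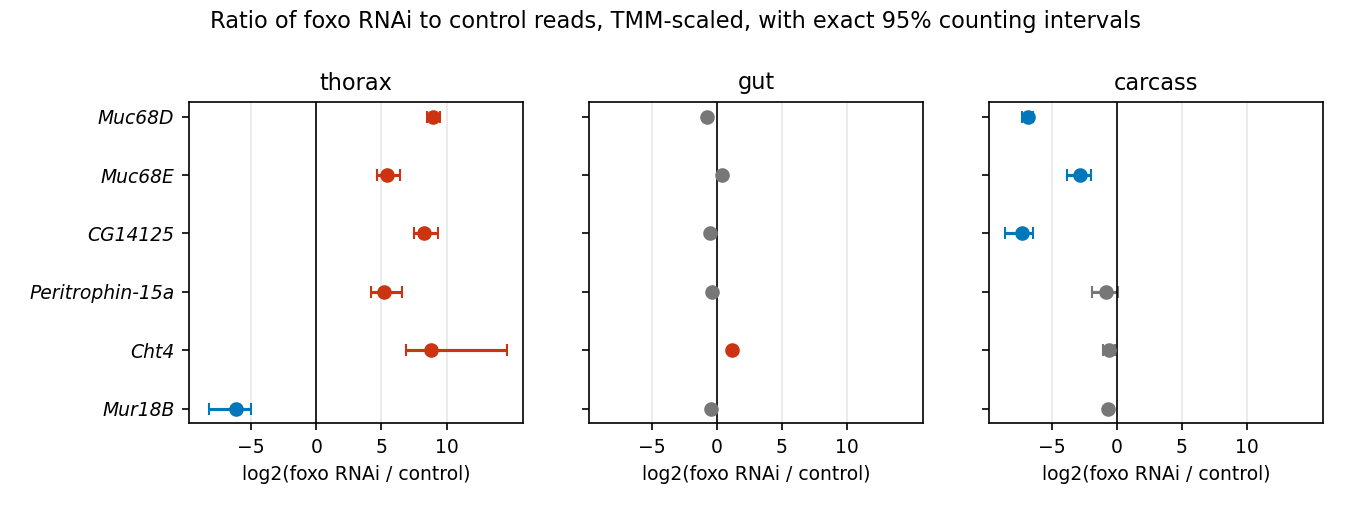
Log2 ratio of foxo RNAi to control for each gene in each tissue, with exact 95% counting intervals; red points are called higher, blue lower and grey neither. In thorax 5 points lie to the right and Mur18B to the left, in gut Cht4 alone is called, and in carcass Muc68D, Muc68E and CG14125 are called lower.

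Over all genes with at least 30 reads in the pair, the rule called 3.56% higher and 2.72% lower in thorax, with 5 of the 6 genes among the higher and 1 among the lower. In carcass it called 3.41% higher and 10.2% lower, with 0 and 3 of the 6. Nothing is read from these counts, because the thorax and carcass ratios chose the genes. In gut it called 2.22% higher and 3.18% lower, with 1 of the 6 genes higher (Cht4) and 0 lower. Scaling gut and carcass by total reads moved the median log2 ratio of all genes up by 0.24 and 0.17 and the share of calls that were higher from 41.2% to 65.9% in gut and from 25.0% to 41.8% in carcass. No call on the 6 genes and no direction of their ratios changed under it. In bulk tissue, fewer cells of a type and less RNA per cell cannot be told apart.

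The differences between tissues were tested with edgeR over all 6 libraries, with genotype as a term and 9293 genes tested. The 2 libraries of a tissue differ in genotype, so the spread in this test, with 2 residual degrees of freedom, is how far the genotype difference varies between tissues. A gene chosen for a large thorax or carcass difference enters with a large spread, so a comparison that did not pass says little about its tissue difference. Peritrophin-15a was higher in gut than in thorax by 6.95 on the log2 scale (adjusted p = 0.0152) and higher than in carcass by 9.02 (adjusted p = 0.0101). Muc68E was higher in gut by 6.81 (adjusted p = 0.0336) and 8.42 (adjusted p = 0.0253). Mur18B was higher in gut than in thorax by 6.83 (adjusted p = 0.0150) and lower in thorax than in carcass (log2 difference -7.70, adjusted p = 0.0167), and its gut and carcass levels gave -0.87 with adjusted p = 0.572. Each of these differences had the same direction in both genotypes.

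Muc68D, CG14125 and Cht4 did not pass in any of the 3 comparisons with all 6 libraries. Their gut over thorax log2 differences were 2.75, 3.62 and 4.27, with adjusted p of 0.466, 0.334 and 0.0845. Among all genes tested, 26.5% were higher in gut than in thorax, 20.7% higher in gut than in carcass and 19.3% lower in thorax than in carcass. Against these shares, 3, 2 and 1 of the 6 genes passed.

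Leaving out single libraries changed several of these calls. These removals also take away part of the genotype difference that chose the genes. Each leaves 1 tissue with 1 library, so its fit cannot test a tissue difference for these genes. Calls gained or lost in such fits are therefore a description. Ranges of adjusted p are over 10 alternatives, which include these removals. The high foxo RNAi thorax levels helped to choose Muc68D, CG14125 and Cht4. Without that library, their gut over thorax log2 differences were 13.5, 13.5 and 11.4. Without control thorax instead, the differences of the same genes were 0.874, 1.75 and 2.66, so they depended on which thorax library was kept. Removing a thorax library also takes the thorax difference that chose the genes out of the spread. Without control thorax and without foxo RNAi thorax, the gut over carcass log2 difference was 6.82 and 6.81 for Muc68D. It was 7.28 and 7.26 for CG14125, and 5.06 and 5.05 for Cht4. Under the same removals the gut over carcass log2 difference of Mur18B was -0.92 and -0.93, against -0.87 with all 6 libraries. Muc68E lost the gut over thorax call without control gut (adjusted p = 0.0841) or foxo RNAi gut (0.137), over a range of 0.000769 to 0.137. It lost the gut over carcass call without control gut (0.175), foxo RNAi gut (0.0550) or foxo RNAi carcass (0.0792), over a range of 7.45e-05 to 0.175. Peritrophin-15a lost the gut over carcass call without control gut (0.0760) or foxo RNAi carcass (0.0707), over a range of 1.08e-06 to 0.0760. Mur18B lost the thorax and carcass call without foxo RNAi carcass (0.0590), over a range of 1.82e-05 to 0.0590. The gut over thorax calls of Peritrophin-15a and Mur18B were kept in 10 of 10 alternatives.

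Set against gut of the same genotype, Muc68D in foxo RNAi thorax reached 41.0% of its gut RPKM, CG14125 22.3% and Cht4 16.6%, while Peritrophin-15a reached 3.32% and Muc68E 2.57%. In control thorax the same 5 genes stood between 0.0552% and 0.0851%. In control carcass Muc68D stood at 11.5%, Cht4 at 8.90% and CG14125 at 8.42%, against 0.158%, 2.52% and 0.0657% in foxo RNAi carcass. Mur18B was at 341% and 269% of its gut level in control and foxo RNAi carcass, and at 4.20% and 0.0609% in thorax.

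Genes of digestive enzymes differed in the same directions in thorax and carcass as Muc68D, Muc68E and CG14125. Of 53 listed, 9 lie within another gene and were at 0 in all libraries, and 31 held at least 30 reads in each of the thorax and carcass pairs. In thorax 18 of 31 were higher and 0 lower, and their summed share of reads was 0.0375% in control and 0.135% in foxo RNAi. In carcass 0 of 31 were higher and 23 lower, at 0.113% and 0.0314%. In gut 0 of 43 were higher and 18 lower (median log2 ratio -0.58). Of the 6 genes, Cht4 (log2 ratio 1.15) was called higher in gut and none lower. Muc68D (-0.73), CG14125 (-0.47), Mur18B (-0.41) and Peritrophin-15a (-0.33) also had negative log2 ratios there, and Muc68E (0.40) a positive one. Over all genes, the rule called 3.56% higher and 2.72% lower in thorax, 2.22% and 3.18% in gut, and 3.41% and 10.2% in carcass. In foxo RNAi thorax the median digestive enzyme gene, over 43 with at least 30 reads in each gut library, stood at 0.516% of its gut level. The following ranks are a description, since the same thorax and carcass values chose the 6 genes and not the enzymes. Muc68D, CG14125 and Cht4 were above all of these enzymes except the maltase gene Mal-A5 (4600%), and the next enzyme, LManIV, was at 7.73%. Mal-A5 has few reads in gut, though at least 30 in each gut library. It stood far above its gut level in thorax and carcass of both genotypes (3830% to 7006%). In control carcass the median enzyme stood at 0.607%, and the same 3 genes were again above all but Mal-A5. Peritrophin-15a and Muc68E lay within the range of the enzymes in both libraries. Relatives outside the 6 stood as high in foxo RNAi thorax: Cht8 was at 50.9% of its gut level, CG10725 at 23.5% and Cht9 at 16.5%. The chitin deacetylase gene Cda9 (39.0%) and the chitin-binding list gene CG13806 (26.0%), named after their values were seen, did so too.

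Of all genes, 3.56% were called higher and 2.72% lower in thorax, 2.22% and 3.18% in gut, and 3.41% and 10.2% in carcass. Among 14 intestinal epithelium genes, 4 of 10 measured were higher and 1 lower in thorax, and 0 of 9 were higher and 2 lower in carcass. Not all of these genes were specific to gut here. In control thorax pros stood at 850% of its gut RPKM, and in control carcass Dl stood at 242%. The medians of 12 of these genes were 2.51% in control thorax and 3.88% in control carcass. The septate junction genes Ssk and Tsp2A were at 0 in all libraries. In thorax 3 of 14 fat body genes were higher and 3 lower, and in gut 0 of 12 were higher and 3 lower. Female tract genes were higher for 3 of 3 measured in gut, with 13 summed reads in control and 259 in foxo RNAi. Fat body genes were lower for 8 of 13 in carcass, and 5 of 5 female tract genes were lower there. Ovary and eggshell genes went the other way in carcass, with 11 of 20 higher and 0 lower (median log2 ratio 1.09), at 7.51% of reads in control and 7.04% in foxo RNAi. This list includes the yolk protein genes Yp1, Yp2 and Yp3, and it took 3.19% and 3.04% of reads in control and foxo RNAi thorax. Its summed share is therefore not read as an amount of ovary. The part of these tissues' RNA in the ratios of the 6 genes was not tested.

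**Figure D3:**
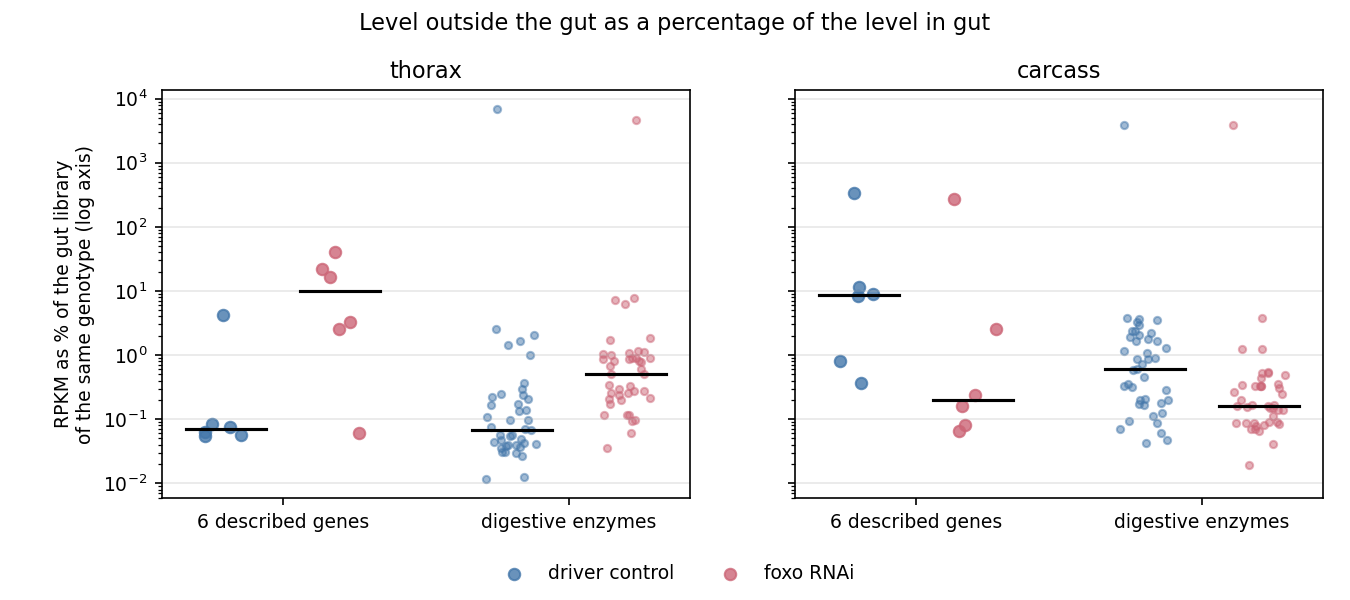
RPKM in thorax and carcass as a percentage of the gut library of the same genotype, on a log axis, for the 6 described genes and 43 digestive enzyme genes; blue is driver control, red is foxo RNAi, black lines are medians, and the 1 or 2 enzymes at 0 in each library are not drawn. In foxo RNAi thorax 3 of the described genes lie between 16.6% and 41.0%, above every enzyme except Mal-A5.

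The remaining genes of the families were taken from 3 lists of mucins, peritrophins with chitin-binding domains, and chitinases with other chitin enzymes. Of 93 names 90 were matched, 7 of which lie within another coding gene, and 84 are not among the 6. In thorax 45 of the 84 held enough reads, and 16 were higher and 2 lower, with a median log2 ratio of 0.42 against 0.00 over all genes. In gut 4 were higher and 4 lower of 47 (median 0.08 against -0.01), and in carcass 10 higher and 9 lower of 46 (median -0.11 against 0.06). The rule called 3.56% of all genes higher and 2.72% lower in thorax, 2.22% and 3.18% in gut, and 3.41% and 10.2% in carcass.

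In thorax the largest differences upward were in peritrophin-type genes and chitinases. CG10725 went from 1 to 570 reads, a ratio of 187 (50.2 to 11112), and CG7298 from 6 to 1135, a ratio of 86.1 (42.7 to 255). The chitinase gene Cht8 went from 100 to 2695 reads, 13.2-fold higher (10.9 to 16.4), and its relative Cht9 from 1 to 141, a ratio of 46.5 (12.3 to 2763). CG7017 had 0 and 113 reads and was at least 14.8-fold higher, by the near end of its interval. CG32302, which overlaps yellow-g, had 1 and 430 reads, a ratio of 141 (37.8 to 8387). Muc30E was 2.23-fold lower (1.76 to 2.82) and Cht3 2.02-fold lower (1.73 to 2.37).

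Of the genes just named, CG10725, Cht8, Cht9, CG7298 and Muc30E were called in the opposite direction in carcass, and CG32302 in the same direction, with 8 and 205 reads (25.3-fold higher, 13.4 to 63.1). CG10725 was 59.5-fold lower with 93 and 1 reads (15.5 to 3541), Cht8 13.4-fold lower (6.40 to 40.4), Cht9 13.2-fold lower (4.92 to 76.6) and CG7298 8.05-fold lower (4.58 to 16.7). CG10154 had 260 reads in control and 0 in foxo RNAi and was at least 66.7-fold lower, by the near end of its interval. Crys, whose product drosocrystallin is found in the peritrophic matrix, was 6.82-fold lower (3.12 to 21.0). Upward, Muc91C had 0 and 49 reads and was at least 13.4-fold higher, by the near end of its interval. Mur11Da was 9.84-fold higher (5.36 to 22.1), Muc30E 11.8-fold (4.33 to 68.9) and Cda4, a chitin deacetylase gene, 6.74-fold (3.59 to 15.3). The epidermal chitin synthase gene kkv, which other annotated genes overlap, was 8.29-fold higher (5.05 to 15.3).

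In gut CG32302, which overlaps yellow-g, went from 17 to 4808 reads, 238-fold higher (153 to 422). Crys was 2.43-fold higher (2.30 to 2.57). The genes obst-H and CG7017 were 3.35-fold (1.99 to 6.21) and 2.02-fold higher (1.71 to 2.40). Cht9 was 2.83-fold lower (2.50 to 3.21), CG10725 2.25-fold lower (2.09 to 2.44) and CG32024 2.57-fold lower (1.73 to 3.92). CG10154 was 14.5-fold lower (4.55 to 154), with 31 and 2 reads.

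**Figure D4:**
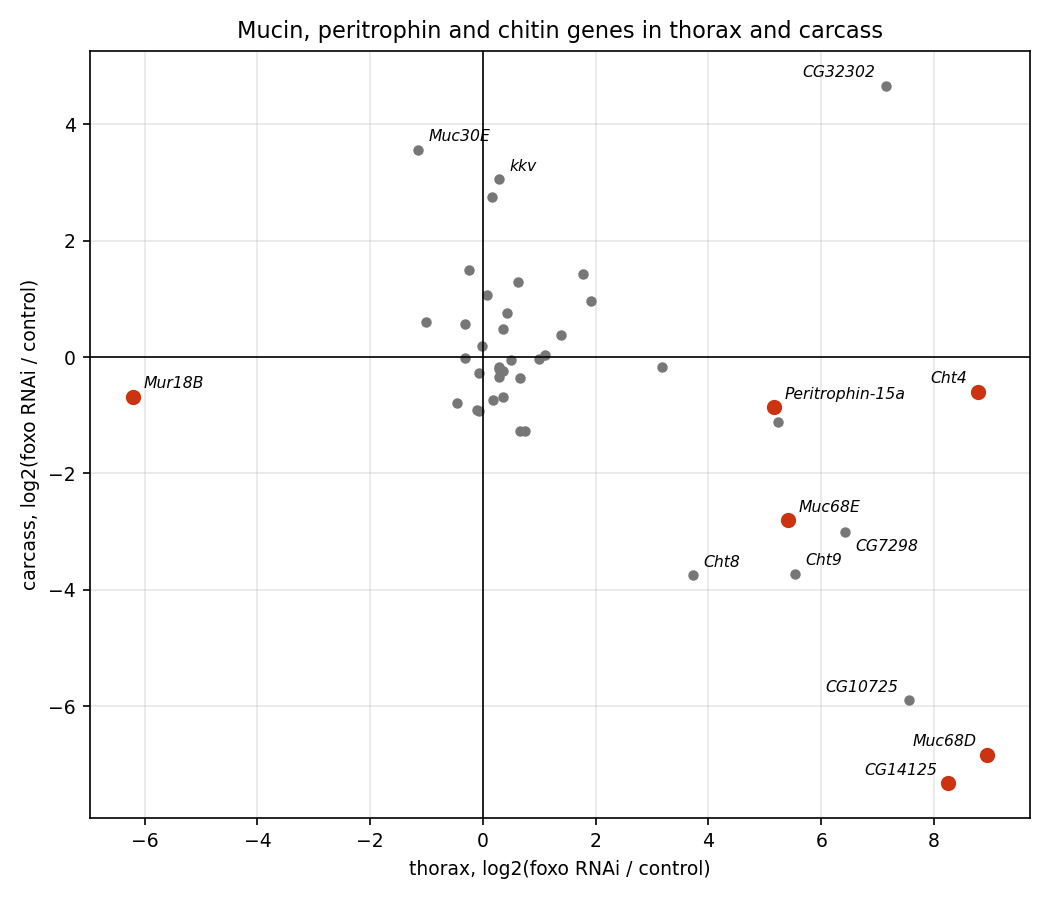
Log2 ratio of foxo RNAi to control in thorax (x axis) and carcass (y axis) for the 44 family genes with at least 30 reads in both pairs; red points are the 6 described genes and grey points the others. Points at the lower right, higher in thorax and lower in carcass, include Muc68D (8.94 and -6.83), CG14125 (8.24 and -7.32) and CG10725 (7.55 and -5.89).

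Neighbours on the chromosome were read for the same libraries. CG42397 lies between Muc68E and CG14125, 105 bases from the first and 1114 from the second, and went from 5 to 834 reads in thorax, a ratio of 74.8 (35.1 to 254). In carcass it went from 73 to 8, 8.25-fold lower (4.19 to 20.9), and in gut from 14320 to 29626, a ratio of 1.80 (1.76 to 1.83). CG43896, 300 bases beyond CG14125, had 2 and 30 reads in thorax and was called higher (ratio 6.01, 1.88 to 63.8), with few reads in the other tissues. On the other side of Muc68E, prc lies 1211 bases away and had 22 and 57 reads in thorax (ratio 1.26, 0.768 to 2.19) and 24 and 54 in carcass (ratio 2.33, 1.43 to 3.99), where the near end of its interval fell just short of the rule. The stretch from Muc68E to CG14125 holds 3 genes with opposite calls in thorax and carcass. Of these, Muc68E and CG14125 were chosen for such differences, and CG42397 was not.

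Of the 4 nearest genes around Cht4, 3 are chitinase genes and the other is the non-coding gene CR44703, at 0 reads in all libraries. Cht9 lies 904 bases away, Cht12 392 bases away and Cht8 2166 bases away, and Cht8 and Cht9 were called in both thorax and carcass as given above. Cht12 overlaps Cht8 and had 0 and 8 reads in thorax. Muc18B, 576 bases from Mur18B, had 0 and 12 reads in thorax, 72 and 40 in gut and 3 and 1 in carcass. Peritrophin-15b, 724 bases from Peritrophin-15a, was listed at 0 in all 6 libraries. CG6024, 1116 bases from Muc68D, had 218 and 488 reads in thorax, a ratio of 1.10 (0.938 to 1.30).

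Genes with the most similar course over the 6 libraries were found by the root mean square difference of centred log2(CPM + 1) among 9612 genes. This measure includes the contrasts that chose the 6 genes and is given as a description. Muc68D and CG14125 were each other's nearest gene at 0.50, and both were followed by CG3819 and CG3906, at 1.22 and 1.22 for Muc68D and at 0.85 and 0.90 for CG14125. Nearest to Muc68E were CG5506 (0.39), CG42397 (0.44) and CG7298 (0.46), and nearest to Peritrophin-15a were CG3344 (0.50), CG32633 (0.50) and Muc68E (0.53). Nearest to Cht4 were CG15818 (0.52), CG5399 (0.93) and CG7017 (1.02). Mur18B stood apart from the other 5, nearest to CG14292 (0.64), the alkaline phosphatase gene Alp2 (0.93) and Uro, the urate oxidase gene of Malpighian tubules (0.96). Alp2 had 231 and 3 reads in thorax, 7621 and 1148 in gut and 9680 and 2567 in carcass, and Uro 21 and 4, 619 and 370, and 1591 and 1401. Of the Malpighian tubule genes listed, 1 of 9 measured was higher and 0 lower in thorax, against 3.56% and 2.72% of all genes. In carcass 0 of 12 were higher and 1 lower, against 3.41% and 10.2%. In gut 0 of 12 were higher and 4 lower (median log2 ratio -0.87), against 2.22% and 3.18%.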

How the data were processed

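Total RNA libraries were made with a stranded kit, per the labels' protocols, and single reads of 50 bases were mapped to Release 6, per the design text; the aligner, the counting tool and its use of strand are not stated there. Per gene, the authors deposited raw counts and RPKM values. The deposited RPKM is per gene span, introns included. The 1465 coding genes within another coding gene were at 0 in all libraries and were treated as not measured. Deposited totals exceed the read numbers in the design text.

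The 6 genes, the gene lists and the tests were chosen with earlier results of these data known. Ratios used edgeR 4.0.16 TMM factors with 0.5 added to each count and exact Clopper-Pearson 95% intervals; levels have exact Poisson intervals. The tissue comparisons used the quasi-likelihood test of edgeR (Benjamini-Hochberg, threshold 0.05) in R 4.3.3, tested on simulated counts, with DESeq2 1.42.0 as an alternative. Named family genes were up to 6 called genes per tissue and direction with the largest near interval bound; also named were up to 2 neighbours on each side and the 3 most similar profiles. Coordinates and coding lengths come from the RefSeq and Ensembl 115 annotations. No sequence is printed.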

Additional observations from a re-analysis of the deposited data

Results flagged for a closer look

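The genes below were called in opposite directions in 2 tissues. Each call compares 1 library with 1 library, the difference between tissues was not tested, and Muc68D, Muc68E and CG14125 were selected on these contrasts. Values are log2 ratios of foxo RNAi to control.

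Higher in thorax and lower in carcass were Muc68D (8.94 and -6.83), CG14125 (8.24 and -7.32), Muc68E (5.41 and -2.80), CG10725 (7.55 and -5.89), CG7298 (6.43 and -3.01), Cht9 (5.54 and -3.72) and Cht8 (3.72 and -3.75). CG10725 and Cht9 were also lower in gut, at -1.17 and -1.50. The reverse order, lower in thorax (-1.16) and higher in carcass (3.56), was found for Muc30E. Crys was higher in gut (1.28) and lower in carcass (-2.77). The digestive enzyme genes listed differed in the same directions as the first group in thorax and carcass, and their part in these differences was not tested.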

How the results depend on the processing

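The counts of the 6 genes called in each tissue were the same under every alternative run (total-count scaling, DESeq2 size factors, TMM over all libraries, 1 added to each count where it applies, minimums of 10 and 100 reads). Of 90 alternative values of their ratios, 74 stayed inside the counting interval, 16 left it and none changed sign; the largest shift was 1.36 on the log2 scale, for Cht4 in thorax, where the control has 1 read.

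Under total-count scaling, 333 genes were higher in gut (175 with TMM) and 478 in carcass (293), and 1546 were higher in gut than in thorax and 1117 than in carcass. Leaving out 1 library in turn gave 1265 to 2666 genes higher in gut than in thorax, 998 to 1902 higher in gut than in carcass, and 997 to 1724 lower in thorax than in carcass.

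The thorax over carcass log2 difference changed direction when 1 library was left out for 5 genes, ranging from -6.71 to 7.29 for Muc68D, -2.46 to 4.47 for Muc68E, -6.20 to 7.69 for CG14125, -1.92 to 3.83 for Peritrophin-15a and -6.38 to 2.40 for Cht4. The gut over carcass difference of Mur18B ranged from -2.62 to 0.41. Each removal of 1 library leaves its tissue with 1 genotype, so the tissue difference then depends on which genotype remains. The part of this in the changes was not tested. With 1 library for each genotype and tissue, genotype ratios have no replicate check, and the fewest reads behind a value limit it most (1 for Cht4 in control thorax, 4 for Mur18B in foxo RNAi thorax, 8 for CG14125 in foxo RNAi carcass).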
